A study of Mus musculus with 56 samples.

Results

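The S100 proteins and the annexins were followed as 1 set of calcium-binding genes in mouse liver tumours and healthy liver. Members were the genes of the deposited expression table whose symbol was S100A or ANXA followed by a number, S100B or S100G, which gave 28 of 24034 genes: 16 S100 genes and 12 annexins. S100PBP and S100Z fell outside that naming rule. The set was drawn up with results of these data known, and S100A4 and ANXA11 were singled out in it for their lower values in tumours with the lucOS construct. For that reason the lucOS against luc values are given below as a description, with no test.

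The study compared liver tumours of C57BL/6 mice, raised by hydrodynamic tail-vein injection of plasmids for MYC and NICD, with healthy liver. NICD is the intracellular, active part of NOTCH1. Bulk RNA-seq libraries came from 4 lucOS tumours of males, 4 luc tumours of males, 6 lucOS tumours, 6 luc tumours and 6 healthy livers. All 20 tumours carried MYC, NICD and either the luc construct, which holds luciferase, or lucOS, which is known as luciferase joined to model T cell antigens. The titles of the other 12 tumours do not give a sex, and these are called tumours of unstated sex. No ages are given for the bulk libraries, and the labels list the injection method for healthy liver as well. These 26 libraries carry the label of no further treatment. The titles open with an animal series, which is AL75 for the males, AL51 or AL54 for tumours of unstated sex, and AL15 or PM5 for healthy livers. Gene symbols are printed in capitals, as in the table.

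S100 proteins are small EF-hand proteins that pair up, change shape when they bind calcium and then dock onto other proteins, annexins among them. Annexins bind phospholipid membranes when calcium rises and act in membrane repair, vesicle traffic and the handling of dying cells. Some act as fixed pairs: S100A10 with ANXA2 at the cell surface, where the complex binds plasminogen, S100A11 with ANXA1, S100A6 with ANXA11, and S100A8 with S100A9 in calprotectin, the abundant cytosolic protein of neutrophils.

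Most of the S100 genes sit side by side. RefSeq (GRCm38.p6) placed 14 of the 16 S100 members on chromosome 3, and S100B on chromosome 10 and S100G on X, while the 12 annexins lay on 9 chromosomes. The 250 bases upstream of a listed start site are shown for the 6 members with log2 fold changes beyond 3 in either direction between tumours and liver, and for Anxa11, which was chosen by construct. They are shown because NICD acts through the DNA-binding protein RBPJ and MYC through E-boxes. Capitals mark matches to TGGGAA (the RBPJ core), CACGTG (the E-box) or TGANTCA (the AP-1 site), each searched on both strands, so that an RBPJ match on the minus strand reads TTCCCA. No matches overlapped in the windows shown.
S100a4, chr3:90603520-90603769, plus strand: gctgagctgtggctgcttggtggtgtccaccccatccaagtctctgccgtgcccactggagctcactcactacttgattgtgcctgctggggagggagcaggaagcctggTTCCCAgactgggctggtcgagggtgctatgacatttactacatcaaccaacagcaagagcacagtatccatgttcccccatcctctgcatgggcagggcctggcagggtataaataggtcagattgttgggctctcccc
S100a6, chr3:90612644-90612893, plus strand: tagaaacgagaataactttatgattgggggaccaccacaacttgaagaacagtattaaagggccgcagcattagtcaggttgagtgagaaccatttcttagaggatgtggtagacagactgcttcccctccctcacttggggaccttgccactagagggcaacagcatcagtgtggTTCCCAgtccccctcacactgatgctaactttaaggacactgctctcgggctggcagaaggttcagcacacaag
S100a11, chr3:93520246-93520495, plus strand: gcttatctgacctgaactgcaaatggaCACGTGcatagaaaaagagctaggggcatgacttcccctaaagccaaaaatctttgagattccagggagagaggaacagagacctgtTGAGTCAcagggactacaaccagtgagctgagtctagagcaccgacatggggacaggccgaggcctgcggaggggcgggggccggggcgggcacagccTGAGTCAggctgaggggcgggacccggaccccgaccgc
Anxa2, chr9:69453433-69453682, plus strand: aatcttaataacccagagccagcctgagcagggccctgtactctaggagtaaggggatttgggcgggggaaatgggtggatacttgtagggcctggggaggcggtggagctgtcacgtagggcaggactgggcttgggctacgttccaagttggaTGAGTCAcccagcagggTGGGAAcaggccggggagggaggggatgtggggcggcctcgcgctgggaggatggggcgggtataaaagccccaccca
Anxa1, chr19:20390672-20390921, minus strand: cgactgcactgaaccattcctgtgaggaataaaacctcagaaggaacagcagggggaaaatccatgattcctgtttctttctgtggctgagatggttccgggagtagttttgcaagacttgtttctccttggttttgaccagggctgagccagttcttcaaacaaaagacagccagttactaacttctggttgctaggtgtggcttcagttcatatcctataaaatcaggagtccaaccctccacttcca
S100a1, chr3:90514331-90514580, minus strand: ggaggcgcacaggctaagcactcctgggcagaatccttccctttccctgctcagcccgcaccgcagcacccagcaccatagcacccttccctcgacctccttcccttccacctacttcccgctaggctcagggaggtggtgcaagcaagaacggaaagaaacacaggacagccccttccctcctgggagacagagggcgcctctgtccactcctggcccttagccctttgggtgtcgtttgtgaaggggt
Anxa11, chr14:25841905-25842154, plus strand: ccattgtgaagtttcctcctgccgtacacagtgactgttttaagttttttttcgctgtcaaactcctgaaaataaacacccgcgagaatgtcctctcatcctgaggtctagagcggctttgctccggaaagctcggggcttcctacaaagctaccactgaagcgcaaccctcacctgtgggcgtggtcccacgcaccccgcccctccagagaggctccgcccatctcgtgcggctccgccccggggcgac

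S100a4 held 1 RBPJ core, S100a6 held 1, and Anxa2 held 1 RBPJ core and 1 AP-1 site. S100a11 held 1 E-box and 2 AP-1 sites, and the Anxa1, S100a1 and Anxa11 windows held no match. The Anxa11 window belongs to a listed start inside the annotated span of the gene, so its last bases lie within that span. The RBPJ core stood in 7 of the 29 promoter windows listed for 22 members, beside 21.6% of the 32851 windows listed for all genes. The E-box stood in 2 of the 29 windows, beside 6.02% of all windows, and the AP-1 site in 4, beside 6.75%. A match describes the letters only and is not evidence of binding.

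**Figure D1:**
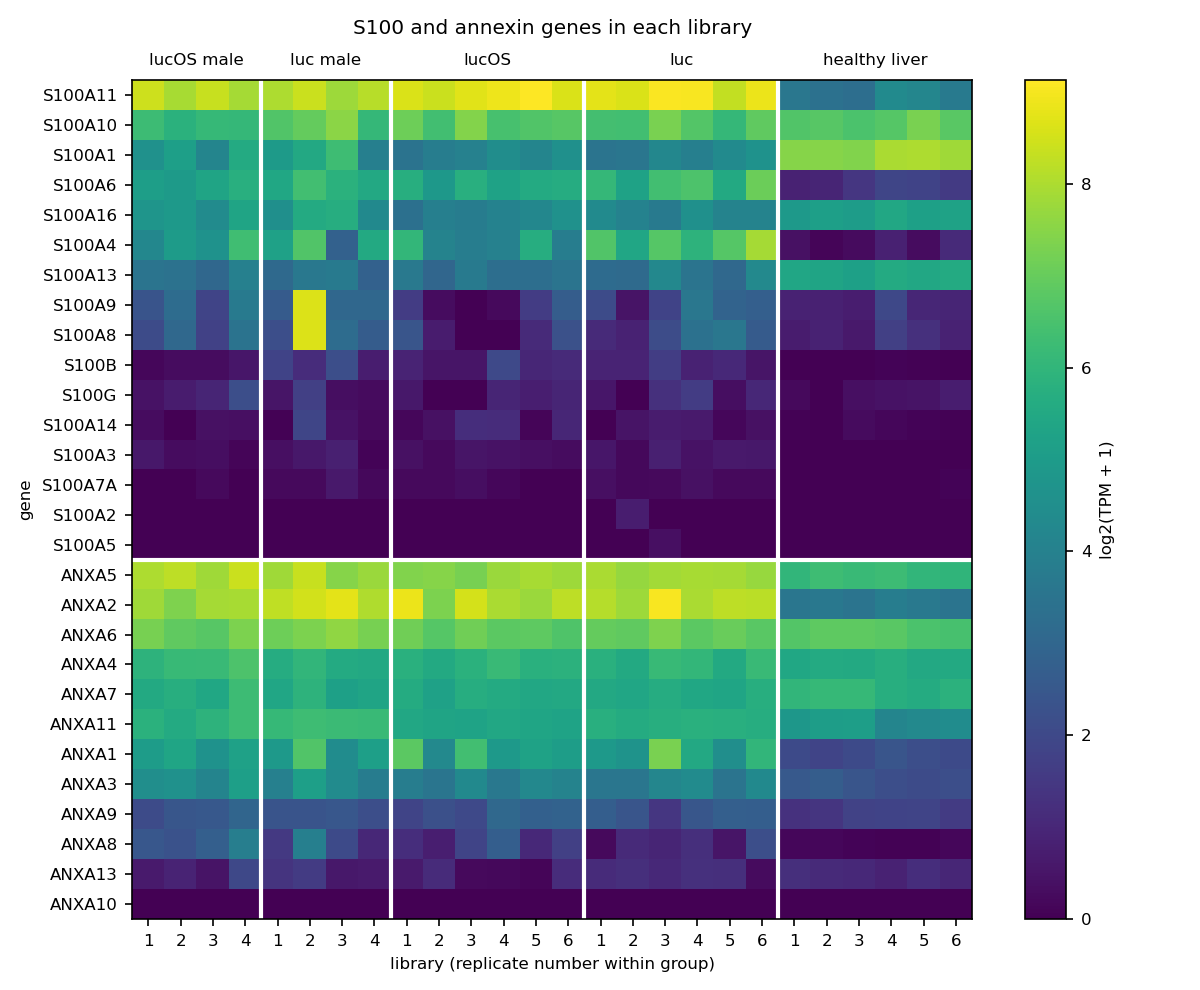
Level of each of the 28 members in each of the 26 libraries, as log2(TPM + 1), with S100 genes above and annexins below and libraries grouped from lucOS male at the left to healthy liver at the right. S100A11, S100A4, S100A6, ANXA2 and ANXA1 were brighter in every tumour than in any healthy liver, and S100A1 and S100A13 were brighter in every healthy liver.

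Levels are given in TPM, transcript abundances that allow for gene length and are scaled to a total near 1000000 in each library. Summed over the 28 members, the level was 1405 ± 162 TPM in lucOS male, 1777 ± 664 TPM in luc male, 1486 ± 219 TPM in lucOS and 1685 ± 329 TPM in luc tumours, against 741 ± 51.8 TPM in healthy liver (SD, n = 4, 4, 6, 6 and 6). In tumours the highest member was S100A11, with a mean of the 4 group means of 358 TPM, followed by ANXA2 with 291 TPM, ANXA5 with 234 TPM and ANXA6 with 135 TPM. The tumour ranges of S100A11, ANXA2 and ANXA5 overlapped, so their order is not firm. In healthy liver the highest was S100A1, with 208 ± 39.3 TPM, ahead of S100A10 with 112 ± 22.9 TPM, and their ranges did not overlap (n = 6). Of the members too low to test, ANXA10 was listed at 0 in all 26 libraries, and the highest value in any library was 2.77 TPM for S100A14, 0.672 TPM for S100A2, 0.309 TPM for S100A5 and 0.531 TPM for S100A7A.

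The question of how tumours differ from liver was tested with limma on log2(TPM + 1), as the mean of the 4 tumour groups, each counted alike, minus healthy liver. Of the 28 members, 22 reached 1 TPM in at least 4 libraries and were tested. ANXA8, S100B and S100G reached it in 0 of the 6 healthy livers, so they entered the test through tumours alone. S100A4 and S100A9 reached it in 1 healthy liver and S100A8 in 2, so these also needed tumours to pass. At an adjusted p under 0.05 (Benjamini-Hochberg, over 15767 genes), 15 members were higher in tumours, 4 were lower and 3 did not pass. Over all genes the same test called 88.7%, with 71.8% higher and 16.9% lower, so the share of members called is near the background. The median log2 fold change was 1.03 for the tested members and 1.03 for all genes tested. Log2 fold changes of the tested members ran from -3.13 to 4.81. How this spread compares with that of all genes was not tested. In bulk tissue, fewer cells of a type and less RNA per cell cannot be told apart.

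Scaling bears on these folds. The hepatocyte list of 10 genes summed to between 278 and 14940 TPM in tumours, against 138700 to 181700 TPM in healthy liver, and all 10 genes were lower. When each library was scaled by its median ratio to the average library, the median of all genes was 0.05 in place of 1.03, and 9 members were higher and 8 lower, beside 42.9% and 41.2% of all genes. Quantile normalization gave 10 members higher and 8 lower, beside 44.6% and 37.2% of all genes. Called members whose direction turned under a scaling are named with their values.

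**Figure D2:**
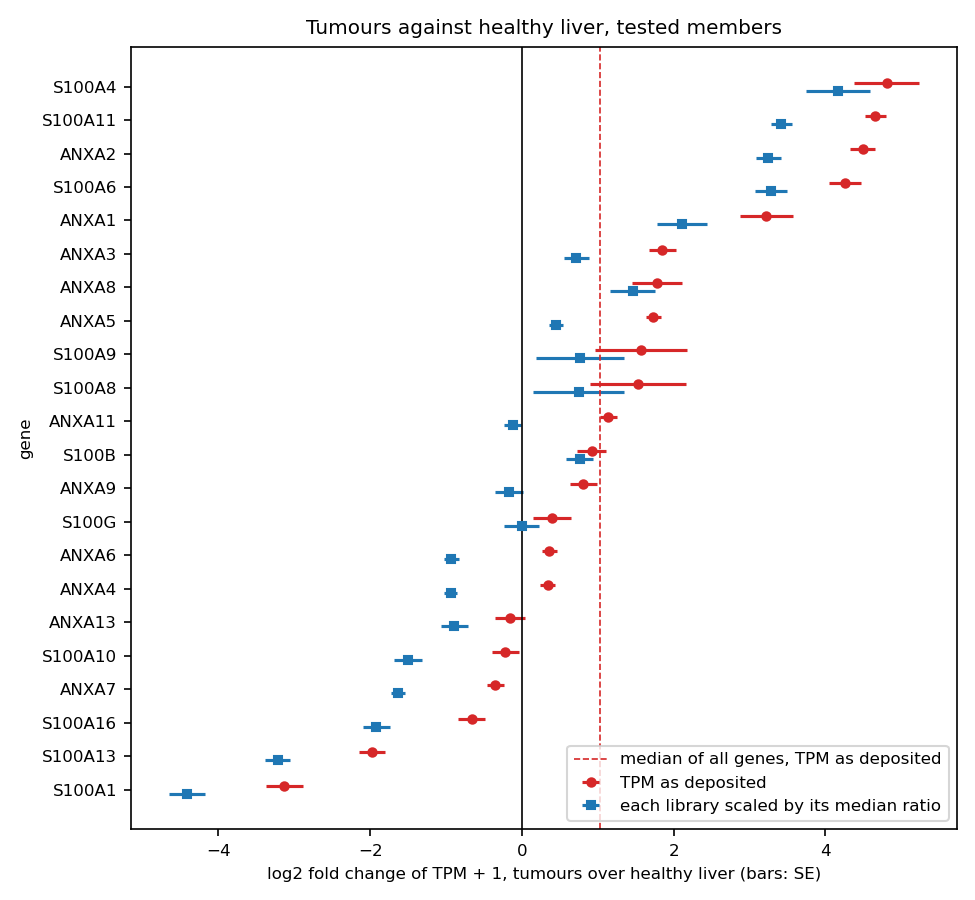
Log2 fold change of TPM + 1 of tumours over healthy liver for the 22 tested members, with bars of 1 SE, from the deposited TPM (circles) and after scaling each library by its median ratio (squares). The dashed line is the median of all genes for the deposited values, at 1.03. S100A4, S100A11, ANXA2, S100A6 and ANXA1 stayed above 2 log2 units under both, and ANXA4, ANXA6, ANXA9 and ANXA11 lay on opposite sides of 0.

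Among the S100 genes, S100A4, S100A11 and S100A6 were the 3 with the largest rise. S100A4, which binds non-muscle myosin and is known from motile, fibroblast-like and some immune cells, ranged from 6.05 to 236 TPM in tumours with a median of 43.1 TPM, against 0.0812 to 1.13 TPM in healthy livers with a median of 0.276 TPM. The tumours spread widely, but the lowest of them was above the highest healthy liver. Its log2 fold change was 4.81 ± 0.43 (SE; limma adjusted p = 1.23e-10).

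S100A11, a partner of ANXA1 found in many epithelia, ranged from 219 to 558 TPM in tumours with a median of 366 TPM, against 8.90 to 19.5 TPM in healthy livers with a median of 11.9 TPM. Within each library it made up 34.9% to 71.0% of all S100 TPM in 19 tumours and 21.8% in luc male 2, where S100A8 and S100A9 were high, against 2.61% to 4.13% in healthy livers. That share is free of any scaling of the library. The log2 fold change was 4.66 ± 0.14 (SE; limma adjusted p = 8.41e-20).

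S100A6, or calcyclin, a calcium sensor of growing cells, ranged from 27.8 to 133 TPM in tumours with a median of 47.9 TPM, against 0.817 to 2.72 TPM in healthy livers with a median of 1.84 TPM. Tumours and healthy livers did not overlap. Its log2 fold change was 4.26 ± 0.21 (SE; limma adjusted p = 1.14e-15).

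The S100A1 and S100A13 pair went the other way. S100A1, best known as a regulator of calcium handling in heart and muscle, ranged from 10.2 to 77.7 TPM in tumours with a median of 18.7 TPM, against 169 to 254 TPM in healthy livers with a median of 200.0 TPM. It made up 1.44% to 12.4% of S100 TPM in tumours, against 47.6% to 52.7% in healthy livers, so the leading S100 transcript of the healthy livers was a minor one in the tumours. Its log2 fold change was -3.13 ± 0.24 (SE; limma adjusted p = 8.75e-12).

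S100A13, which helps release growth factors that lack a signal peptide, ranged from 6.09 to 18.7 TPM in tumours with a median of 10.1 TPM, against 35.8 to 47.0 TPM in healthy livers with a median of 42.2 TPM. No tumour reached the lowest healthy liver, and the log2 fold change was -1.97 ± 0.17 (SE; limma adjusted p = 8.37e-11). S100A13 lies next to S100A1, and their annotated spans overlap by 98 bases. Whether the counting used strand is not given in the sources used here, so reads from the overlap cannot be told apart. The start of S100a1, on the minus strand, and a listed start of S100a13, on the plus strand, bound this interval of 104 bases with 58.7% G and C, in which none of the 3 motifs was found.
S100a1 to S100a13, chr3:90514331-90514434, plus strand: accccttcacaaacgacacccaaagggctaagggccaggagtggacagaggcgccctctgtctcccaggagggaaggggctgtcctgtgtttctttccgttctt

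In chromosome 3 order, S100A1, S100A13 and S100A16 were called lower. The called genes after them, S100A4, S100A6, S100A8, S100A9 and S100A11, were higher, and S100A10, the last, did not pass. Any part of position in this was not tested. Along chromosome 3, after S100A1 and S100A13 came S100A14, not tested, and S100A16, which was lower, at -0.66 ± 0.18 log2 units (SE; limma adjusted p = 0.00137). S100A16, a broadly expressed member, ranged from 9.28 to 50.4 TPM in tumours, against 29.6 to 43.0 TPM in healthy livers, and the groups overlapped. The call was lost when only male tumours were used (-0.23, limma adjusted p = 0.297) and when only the AL15 healthy livers were (-0.53, limma adjusted p = 0.0525). It was -1.92 after scaling by the median ratio and -1.46 after quantile normalization (limma adjusted p = 2.89e-10 and 8.45e-08). S100A3 and S100A2, not tested, stood before S100A4, and S100A5, not tested, stood between S100A4 and S100A6. Then came S100A7A, not tested, S100A8 and S100A9, and farther along S100A11 and S100A10. S100A3, a protein of the hair cuticle, was listed at 0 in all 6 healthy livers and had 0.0719 to 0.750 TPM in tumours, under the 1 TPM filter throughout. S100G, a calcium carrier of intestinal epithelium on chromosome X, did not pass (0.40, limma adjusted p = 0.128). It was 0.0 after scaling by the median ratio and -0.39 after quantile normalization (limma adjusted p = 0.985 and 0.107).

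S100A10 broke with its partner. It ranged from 56.0 to 185 TPM in tumours with a median of 92.9 TPM, against 92.3 to 157 TPM in healthy livers with a median of 106 TPM, and its log2 fold change of -0.22 ± 0.18 did not pass (SE; limma adjusted p = 0.248). ANXA2 differed by far more. It ranged from 158 to 525.7 TPM in tumours with a median of 269 TPM, against 10.4 to 13.5 TPM in healthy livers with a median of 11.3 TPM (log2 fold change 4.49 ± 0.17 SE; limma adjusted p = 6.5e-18).

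The ratio of S100A10 to ANXA2 transcripts was therefore 0.226 to 0.519 in tumours, against 7.77 to 13.2 in healthy livers. This ratio is taken within a library and does not depend on how libraries are scaled. S100A10 itself was called lower after scaling by the median ratio, at -1.50 (limma adjusted p = 2.56e-08), and after quantile normalization, at -0.51 (limma adjusted p = 0.0145). Across the 20 tumours the pair still varied together: with group means removed, Pearson's r was 0.77 (permutation p = 0.00014) and Spearman's rho 0.76 (permutation p = 0.00049), with Benjamini-Hochberg adjusted p of 0.00028 and 0.00098 over the 4 partner pairs computed. Without luc male 3 and 4, the libraries farthest from the median of S100A10, r was 0.77. It was 0.88 among the 8 males, above the 95th percentile of 0.76 for S100A10 with all genes there. Among the 12 tumours of unstated sex it was 0.77, under the 95th percentile of 0.81 there. Among the 7 AL54 tumours it was 0.56, under the 95th percentile of 0.83 there, and -0.24 without lucOS 3 and luc 6, so in AL54 it rested on those libraries. AL51, with 5 tumours, is too few for a value. The median r of S100A10 with all genes was 0.02 and the 95th percentile 0.66.

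The correlation was weaker in the other annexin pairs. Over the 20 tumours each r lay under the 95th percentile of its S100 gene with all genes, 0.49 for S100A11 and 0.58 for S100A6. S100A11 and ANXA1 gave r = 0.46 (permutation p = 0.0619, adjusted 0.0619) and rho = 0.50 (permutation p = 0.0392, adjusted 0.0522), with r = 0.46 without luc 5 and lucOS 5. S100A6 and ANXA11 gave r = 0.41 (permutation p = 0.024, adjusted 0.032) and rho = 0.46 (permutation p = 0.0542, adjusted 0.0542), with r = 0.47 without luc 2 and 6. That relation differed between animal series, with r = 0.79 in the 8 AL75 males, 0.15 in the 12 tumours of unstated sex and -0.48 in the 7 AL54 tumours among them.

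**Figure D3:**
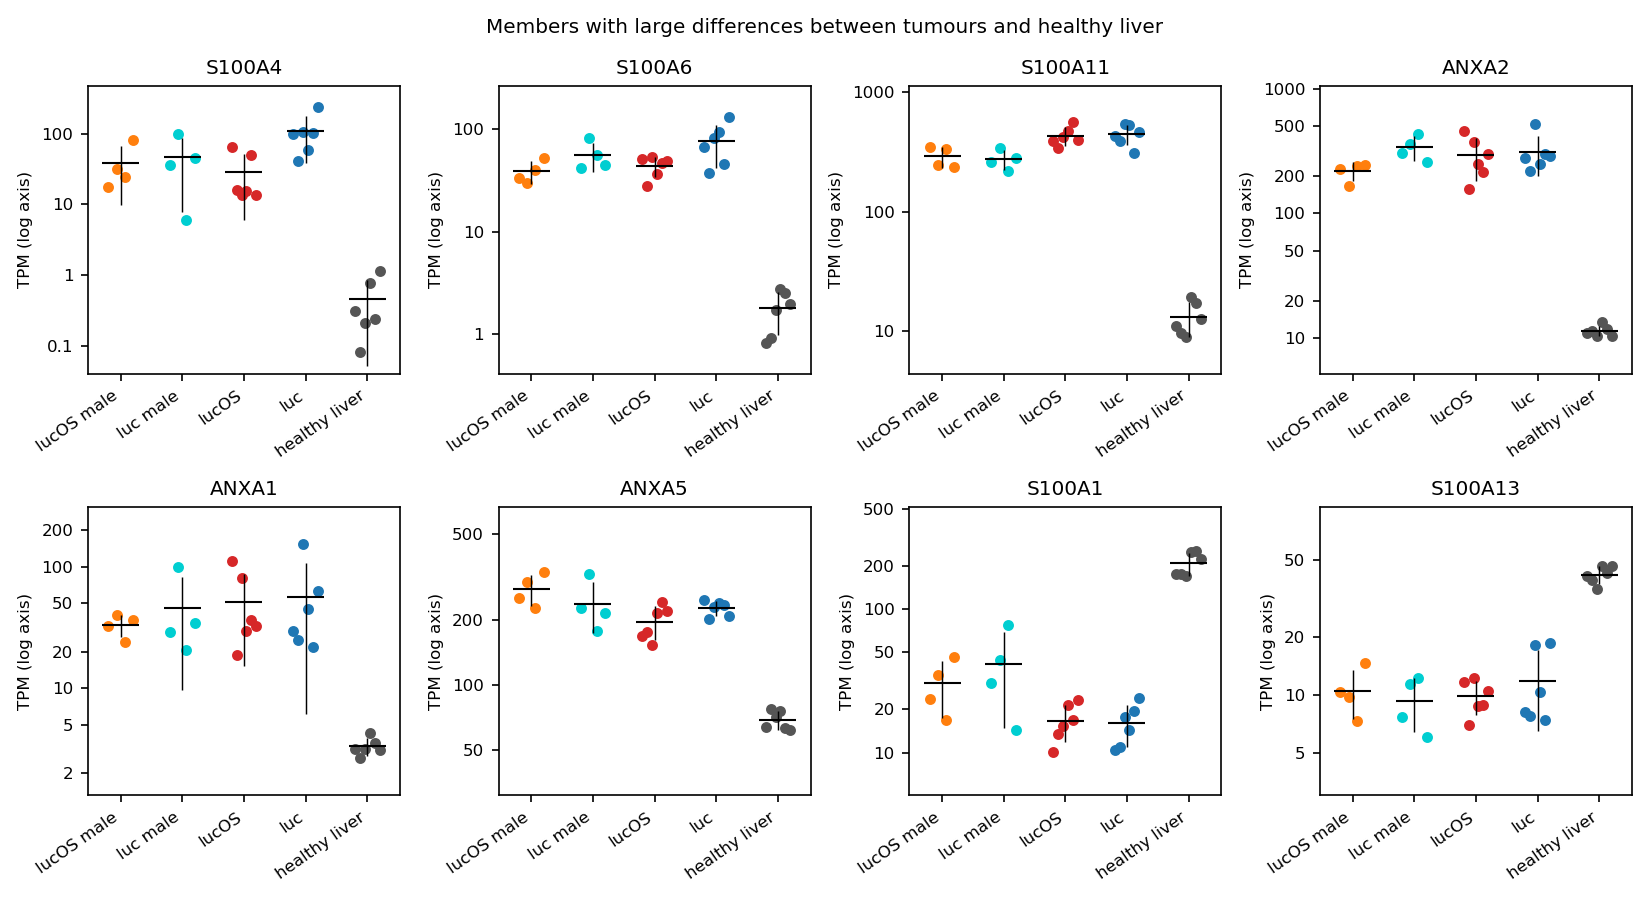
TPM on a log axis in each library for S100A4, S100A6, S100A11, ANXA2, ANXA1, ANXA5, S100A1 and S100A13, with 1 point per library, horizontal lines at the group mean and vertical lines of 1 SD. In the first 6 genes all 20 tumours lay above the 6 healthy livers, and in S100A1 and S100A13 all lay below.

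Of the 11 tested annexins, 9 were higher in tumours and 1 was lower, near the 71.8% and 16.9% of all genes. ANXA1, which acts on formyl peptide receptors to limit inflammation, ranged from 18.7 to 154 TPM in tumours with a median of 33.5 TPM, against 2.64 to 4.29 TPM in healthy livers with a median of 3.17 TPM. Its log2 fold change was 3.22 ± 0.35 (SE; limma adjusted p = 4.84e-09). The highest values stood in single libraries of different groups: luc 3 at 154 TPM, lucOS 1 at 111 TPM and luc male 2 at 99.4 TPM.

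ANXA5, which binds phosphatidylserine and is used to stain dying cells, ranged from 153 to 332 TPM in tumours with a median of 228 TPM, against 61.7 to 77.1 TPM in healthy livers with a median of 67.2 TPM. Its log2 fold change was 1.73 ± 0.10 (SE; limma adjusted p = 4.96e-14), or 0.45 after scaling by the median ratio. ANXA3 rose by 1.85 ± 0.18 log2 units (SE; limma adjusted p = 5.49e-10). ANXA8, an annexin of stratified epithelium at 0.0421 to 0.129 TPM in healthy livers, rose by 1.78 ± 0.33 (SE; limma adjusted p = 2.25e-05) and reached 14.3 TPM in luc male 2. Tumours alone carried ANXA8 past the 1 TPM filter, so that call rests on a choice made through the higher group.

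The direction of ANXA11, ANXA4, ANXA6 and ANXA9 depended on the scaling. ANXA11, a tether of RNA granules to lysosomes, was above every healthy liver in every tumour, at 38.0 to 78.1 TPM against 17.0 to 33.3 TPM, and the log2 fold change was 1.14 ± 0.11 (SE; limma adjusted p = 2.9e-10). After scaling by the median ratio its log2 fold change was -0.12 (limma adjusted p = 0.306). Its healthy livers also split by animal series, with 27.6 to 33.3 TPM in AL15 and 17.0 to 20.9 TPM in PM5. ANXA4, ANXA6 and ANXA9 were higher by 0.34, 0.36 and 0.81 log2 units as deposited, and were at -0.94, -0.93 and -0.17 after scaling by the median ratio. Quantile normalization placed ANXA4 at -0.31 and ANXA9 at -0.53 and left ANXA6 at 0.11.

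ANXA7, or synexin, a membrane-fusion annexin, was the 1 annexin called lower on the deposited TPM. It ranged from 35.1 to 76.2 TPM in tumours with a median of 44.5 TPM, against 48.1 to 68.4 TPM in healthy livers with a median of 60.3 TPM, and the groups overlapped. Its log2 fold change was -0.35 ± 0.11 (SE; limma adjusted p = 0.00414), and the call was lost against the PM5 healthy livers alone (-0.18, limma adjusted p = 0.238). It was -1.63 after scaling by the median ratio and -0.93 after quantile normalization (limma adjusted p = 1.28e-14 and 5.9e-09). ANXA13, an annexin of gut and kidney epithelium, did not pass (-0.16, limma adjusted p = 0.464). It was low, at 0.0888 to 2.91 TPM in tumours and 0.842 to 1.36 TPM in healthy livers. ANXA13 was called lower after scaling by the median ratio, at -0.89 (limma adjusted p = 6.29e-05), and after quantile normalization, at -1.32 (limma adjusted p = 7.15e-08).

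Counted by range, 11 members lay above every healthy liver in all 20 tumours and 2 lay below. Over the 15767 genes that passed the 1 TPM filter, 54.8% lay above and 9.83% below. S100A3, counted among the 11, did not pass that filter. The 11 were ANXA1, ANXA2, ANXA3, ANXA5, ANXA8, ANXA11, S100A3, S100A4, S100A6, S100A11 and S100B, and the 2 were S100A1 and S100A13. S100B, a protein of glia and some immune cells, remained low, at 0.106 to 3.53 TPM in tumours against 0 to 0.0523 TPM in healthy livers. Tumours alone carried S100B past the filter.

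Markers of other cells also differed between tumours and healthy livers. The same test called 71.8% of all genes higher and 16.9% lower, so list counts near those shares set no list apart. The cholangiocyte list, markers of bile duct cells, summed to 364 to 2390 TPM in tumours, against 33.3 to 41.8 TPM in healthy livers, and 9 of its 10 genes were higher. The fibroblast and stellate cell list summed to 588 to 2887 TPM in tumours, against 140 to 149 TPM in healthy livers, with 7 of 10 genes higher and 2 lower. No gene of either list was at 0 throughout a group. The skeletal muscle list summed to 91.3 to 1144 TPM in tumours, against 1.49 to 5.99 TPM in healthy livers, with 3 of 4 tested genes higher. TNNT3 alone made up most of that sum in most tumours, at 46.2 to 1126 TPM against 0.0349 to 0.891 TPM in healthy livers. MYLPF overlapped, at 0.585 to 10.1 TPM in tumours and 1.40 to 2.82 TPM in healthy livers. In the PM5 healthy livers MYH4 had 0.431 to 0.499 TPM and PVALB 0.394 to 0.533 TPM, above every tumour. PVALB was at 0 in all lucOS male, luc male and lucOS libraries and MYH4 at 0 in all lucOS males. The macrophage and Kupffer cell list summed to 220.0 to 1337 TPM in tumours, against 326 to 448 TPM in healthy livers, with 4 of 10 genes higher and 2 lower. Of tested genes, 3 of 4 were higher in the T cell list and 2 of 6 in the B cell list. In the endothelial list 3 of 8 were higher and 2 lower, and in the lung epithelium list 6 of 8 were higher and 2 lower. The part of these cells in the changes of S100A4, S100A6, S100A11, ANXA1 and ANXA2 was not tested.

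Known partners and receptors of the 2 families were read from a list of 22 genes. Of 21 tested, 17 were higher in tumours, 3 were lower and 1 did not pass, with a median log2 fold change of 1.11 beside 1.03 for all genes. Under median ratio scaling 10 were higher and 9 lower, near the 42.9% and 41.2% of all genes. AHNAK, the giant scaffold bound by the S100A10 and ANXA2 complex, rose by 2.80 as deposited and 1.77 under that scaling. MYH9, the myosin heavy chain bound by S100A4, rose by 2.40 and 1.12, and DYSF, the membrane repair protein dysferlin, by 3.64 and 2.69.

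The plasminogen system, which meets the S100A10 and ANXA2 complex at the cell surface, split. PLAT and PLAU, the plasminogen activators, rose by 4.00 and 2.62, and PLAUR, the receptor of PLAU, by 3.15. PLG, plasminogen itself and a hepatocyte product, was at -5.57. AGER, a receptor for several S100 proteins, rose by 2.97, while FPR1, a receptor of ANXA1, was at -1.32. These directions were the same under both scalings.

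S100A8 and S100A9 were low in most libraries and far higher in 1 tumour. S100A8 had 3.26, 7.47, 2.39 and 10.1 TPM in lucOS male tumours and 3.62, 397, 8.26 and 5.23 TPM in luc male tumours, and its lowest, median and highest values were 0, 0.874 and 4.29 TPM in lucOS, 0.810, 4.31 and 11.3 TPM in luc and 0.528, 0.823 and 2.33 TPM in healthy liver. S100A9 followed it, with 399 TPM in luc male 2 and 5.17 to 7.33 TPM in the other 3 luc males. The ranges of tumours and healthy livers overlapped in both genes.

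Both were called higher in tumours, with log2 fold changes of 1.53 ± 0.63 for S100A8 (SE; limma adjusted p = 0.0256) and 1.57 ± 0.61 for S100A9 (SE; limma adjusted p = 0.0188). Both calls were lost when only the tumours of unstated sex were used, at 0.68 and 0.63 (limma adjusted p = 0.34 and 0.364), and under median ratio scaling, at 0.75 and 0.77 (limma adjusted p = 0.244 and 0.218). Without luc male 2 the folds were 1.16 and 1.21 (limma adjusted p = 0.00903 and 0.00565), and without healthy liver 3 that of S100A8 had an adjusted p of 0.0517. Against the AL15 healthy livers alone the folds were 1.82 and 1.81 (limma adjusted p = 0.0621 and 0.0542), and against the PM5 livers alone 1.25 and 1.33 (limma adjusted p = 0.195 and 0.157).

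Neutrophil markers moved with them. The sum of 9 neutrophil genes was 473 TPM in luc male 2, against 4.76 to 6.87 TPM in the other luc males, and in that library NGP, a neutrophil granule gene, stood at 237.5 TPM, MPO at 62.1 TPM and ELANE at 51.1 TPM. The same sum was 2.75 to 12.6 TPM in lucOS male, 0.905 to 3.20 TPM in lucOS and 1.23 to 7.17 TPM in luc tumours, against 1.06 to 2.71 TPM in healthy livers. No gene of the list was at 0 throughout a group. Between tumours and healthy livers, 2 of the 9 genes could be tested with limma and neither passed, nor was either at an unadjusted p under 0.05. S100A8 and S100A9 varied together over the 20 tumours with group means removed, with r = 0.96 (permutation p = 1e-05, the smallest that the permutations can give, adjusted 4e-05) and rho = 0.89 (permutation p = 7e-05, adjusted 0.00028). Without luc male 1 and 2 r was 0.90, and among the 7 AL54 tumours it was 0.93. The part of neutrophils in these values was not tested.

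**Figure D4:**
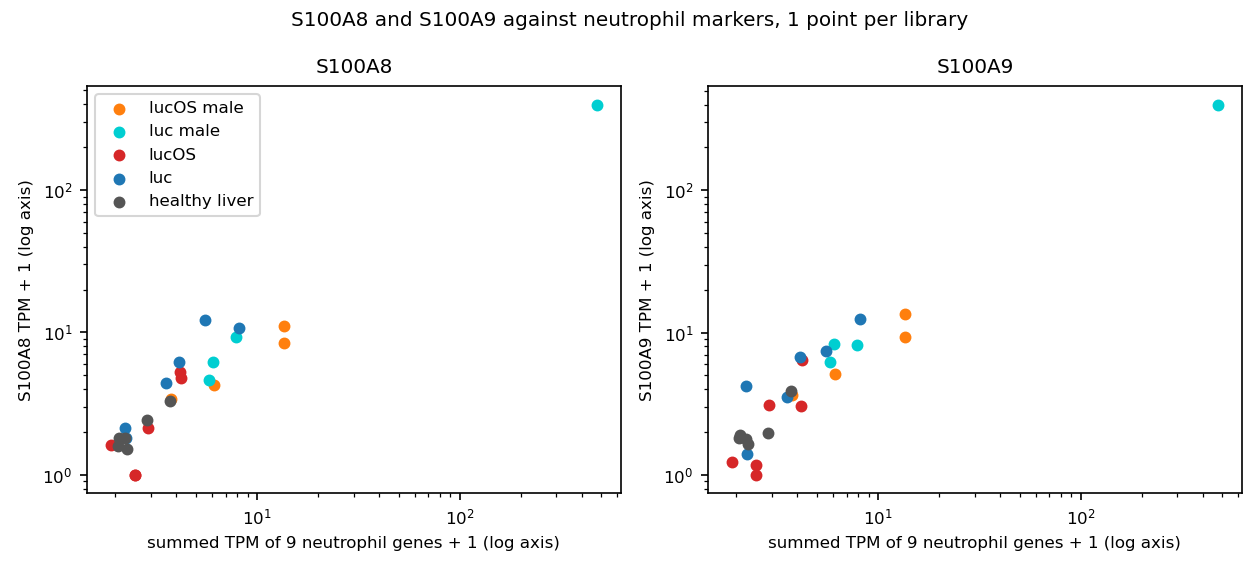
TPM + 1 of S100A8 (left) and S100A9 (right) against the summed TPM + 1 of 9 neutrophil genes, on log axes, with 1 point per library coloured by group. The library luc male 2, at 397 and 399 TPM, stands far from the other 25.

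Tumours of males were set against tumours of unstated sex, within each construct. All males came from animal series AL75 and the others from AL51 and AL54, and the TPM of the males sum to a total that misses 1000000 by up to 256.3, so sex, animal series and processing cannot be told apart. In luc tumours 3 of the 22 tested members were higher in males and 1 was lower, where the same test called 16.9% of 15453 genes, 8.94% higher and 7.97% lower. In lucOS tumours 3 members were higher and 1 was lower, where it called 24.4% of all genes, 15.2% higher and 9.29% lower. In each construct the 3 include ANXA11, which was chosen on these same lucOS and luc tumours, so its calls are no evidence. S100A16 and S100A11 were called in both constructs, each in the same direction.

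ANXA11 was higher in males in luc tumours. It had 68.0, 78.1, 72.7 and 72.0 TPM in luc male tumours, against 48.5, 52.5 and 54.2 TPM (lowest, median and highest) in luc tumours, a log2 difference of 0.47 ± 0.09 (SE). It had 56.1, 46.8, 58.7 and 75.2 TPM in lucOS male tumours, against 38.0, 39.4 and 43.8 TPM in lucOS tumours, a log2 difference of 0.52 ± 0.09 (SE). Both differences are given as a description, because those lucOS and luc tumours chose the gene. In neither construct did the groups overlap, as was so for 13.7% of genes in luc and 16% in lucOS. The luc tumours entered that choice as its higher side. Against only AL51 or only AL54 tumours the luc difference was 0.49 and 0.45.

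S100A11 was lower in males. In luc tumours it had 258, 337, 219 and 281 TPM in males, against 310, 447 and 542 TPM (lowest, median and highest) in those of unstated sex (-0.69 ± 0.17 SE; limma adjusted p = 0.0103). In lucOS tumours it had 343, 246, 331 and 235 TPM in males, against 338, 405 and 558 TPM (-0.57 ± 0.17 SE; limma adjusted p = 0.0226). The groups overlapped slightly in both constructs. The lucOS call was lost without lucOS male 2 or 4, at -0.50 and -0.48 (limma adjusted p = 0.084 and 0.0972), and against only AL51, at -0.35 (limma adjusted p = 0.306). The luc difference was -0.73 against only AL51 and -0.64 against only AL54 (limma adjusted p = 0.0523 and 0.103).

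S100A16 was higher in males by 0.89 ± 0.27 in luc (SE; limma adjusted p = 0.0317) and by 0.85 ± 0.27 in lucOS (SE; limma adjusted p = 0.0306). It had 22.4, 46.5, 50.4 and 19.3 TPM in luc male tumours, against 12.1, 15.9 and 23.1 TPM (lowest, median and highest) in luc tumours. It had 26.3, 29.5, 20.2 and 38.8 TPM in lucOS male tumours, against 9.28, 15.0 and 23.4 TPM in lucOS tumours. Each pair of groups overlapped. In 5 single leave-outs the luc call was lost, those of luc male 2 and 3 and luc 2, 3 and 5 (limma adjusted p from 0.0542 to 0.135), while the fold over all luc leave-outs was 0.67 to 1.12. The lucOS call was lost without lucOS male 2 or 4 or lucOS 1, 2 or 3 (limma adjusted p from 0.0512 to 0.125), while the fold over all lucOS leave-outs was 0.70 to 1.00, and after scaling by the median ratio (0.73, limma adjusted p = 0.0569). Against only AL51 or only AL54 the luc fold was 0.99 and 0.79 (limma adjusted p = 0.119 and 0.197) and the lucOS fold 1.20 and 0.68 (limma adjusted p = 0.0886 and 0.166). The highest tumours were luc male 3 and luc male 2, followed by lucOS male 4.

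S100A1 was higher in luc males, with 30.5, 44.5, 77.7 and 14.3 TPM, against 10.4, 16.1 and 24.1 TPM in luc tumours (1.13 ± 0.37 SE; limma adjusted p = 0.0417). That call was lost without any 1 of luc male 1, 2 and 3 and luc 1, 2, 3 and 4 (limma adjusted p from 0.0527 to 0.184), while the fold over all leave-outs was 0.76 to 1.55. ANXA5 was higher in lucOS males, with 253, 299, 228 and 332 TPM, against 153, 196 and 242 TPM in lucOS tumours (0.51 ± 0.16 SE; limma adjusted p = 0.0248). It was lost without lucOS male 2 or 4 or lucOS 1 or 3 (limma adjusted p from 0.0513 to 0.107), while the fold over all leave-outs was 0.42 to 0.60. S100A10 was lower in lucOS males without overlap, at 56.0 to 75.6 TPM against 82.2 to 174 TPM, and did not pass (-0.72 ± 0.26 SE; limma adjusted p = 0.0519). S100A4, chosen on these tumours, differed by -1.49 ± 0.65 in luc and 0.47 ± 0.65 in lucOS (SE), given with no test. Whether the male difference itself differed between luc and lucOS was not tested.

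Cell markers also differed between males and the others. Over all genes the test called 8.94% higher in luc males and 15.2% higher in lucOS males. The macrophage and Kupffer cell list summed to 582 to 1337 TPM in lucOS males, against 220.0 to 727 TPM in lucOS tumours, with 4 of 10 genes higher, and to 308 to 1260 TPM in luc males, against 276 to 560 TPM in luc tumours, with 0 of 10 called by limma and 1 of 10 at an unadjusted p under 0.05. The B cell list summed to 14.8 to 131 TPM in lucOS males, against 0.787 to 3.30 TPM in lucOS tumours, and to 13.2 to 28.2 TPM in luc males, against 1.03 to 1.98 TPM in luc tumours. Of 6 B cell genes tested, 6 were higher in lucOS males and 5 in luc males. The endothelial list summed to 184 to 328 TPM in lucOS males, against 99.5 to 208.5 TPM in lucOS tumours, with 4 of 8 genes higher, and to 219 to 344 TPM in luc males, against 119 to 238 TPM in luc tumours, with 2 of 8 higher. The lung epithelium list summed to 48.0 to 86.1 TPM in lucOS males, against 26.5 to 54.4 TPM in lucOS tumours, and to 66.6 to 201 TPM in luc males, against 32.8 to 61.7 TPM in luc tumours. In both constructs 4 of its 7 tested genes were higher in males, while SCGB1A1 was at 0 in all lucOS and NKX2-1 at 0 in all luc tumours. HOPX led the lung sum in most libraries, at 162.6 of 201 TPM in luc male 3. Healthy livers had 48.2 to 99.4 TPM of HOPX in a lung sum of 51.2 to 102 TPM. SFTPC had 7.42 to 30.8 TPM in males, against 0 to 0.323 TPM in tumours of unstated sex. LAMP3, under 1 TPM throughout, leaned the other way, at 0.0351 to 0.260 TPM in males against 0.160 to 0.723 TPM. HOPX overlapped between males and the others in both constructs. The T cell list summed to 9.02 to 31.9 TPM in lucOS males, against 3.78 to 16.7 TPM in lucOS tumours, with 2 of 3 tested genes higher, and to 6.74 to 10.1 TPM in luc males, against 2.05 to 5.17 TPM in luc tumours, with 1 of 3 higher. The fibroblast and stellate cell list had 4 of 10 genes higher in lucOS males, though its sums of 702 to 2768 TPM overlapped the 840 to 2709 TPM of lucOS tumours. It had 1 of 10 higher in luc males, at 588 to 2316 TPM against 909 to 2887 TPM in luc tumours. The part of these cells in the values of ANXA11, ANXA5 and S100A16 was not tested.

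Of the partner list, 20 genes could be tested between males and the others. In luc tumours 1 was higher and 1 lower, beside 8.94% and 7.97% of all genes. In lucOS tumours 0 were higher and 2 lower, beside 15.2% and 9.29%. These counts do not set the list apart. In luc tumours PLAT was higher in males (2.05, limma adjusted p = 0.0174) and PLGRKT, a plasminogen receptor, was lower (-0.61, limma adjusted p = 0.0111). In lucOS tumours CACYBP and SUGT1, which both bind S100A6, were lower in males (-1.22 and -0.41, limma adjusted p = 0.00358 and 0.0133).

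The lucOS and luc constructs were then set side by side, as a description, since this comparison chose S100A4 and ANXA11. Among tumours of unstated sex, S100A4 had 65.2, 15.8, 13.6, 15.3, 50.7 and 13.5 TPM with lucOS, against 100.1, 40.9, 105, 58.8, 104 and 236 TPM with luc. lucOS 1 and 5 reached into the luc range and the other 4 stayed below it. The log2 difference was -1.95 ± 0.54 (SE, n = 6 each), -1.20 within AL51 and -2.47 within AL54, and -2.24 to -1.68 with any 1 library left out.

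In males S100A4 had 17.9, 31.4, 24.0 and 80.3 TPM in lucOS tumours, against 36.3, 99.5, 6.05 and 45.3 TPM in luc tumours. The groups overlapped from end to end, and the log2 difference was 0.01 ± 0.93 (SE, n = 4 each), from -0.74 to 0.54 with 1 library left out.

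ANXA11 was the tighter of the 2 genes. It had 43.8, 39.1, 38.0, 43.3, 39.8 and 38.3 TPM in lucOS tumours, against 53.6, 48.5, 51.8, 54.2, 53.1 and 51.0 TPM in luc tumours. All 6 lucOS tumours lay below all 6 luc tumours. Separate ranges were found for 16 of 14784 genes in this comparison, or 0.108%, a share given for scale only, because the gene was chosen here. The log2 difference was -0.36 ± 0.04 (SE, n = 6 each), -0.30 within AL51 and -0.40 within AL54.

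In males ANXA11 had 56.1, 46.8, 58.7 and 75.2 TPM in lucOS tumours, against 68.0, 78.1, 72.7 and 72.0 TPM in luc tumours, a log2 difference of -0.31 ± 0.14 (SE, n = 4 each). lucOS male 4 lay within the luc male range and the other 3 lay below it. Leaving out 1 library gave -0.43 to -0.21.

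**Figure D5:**
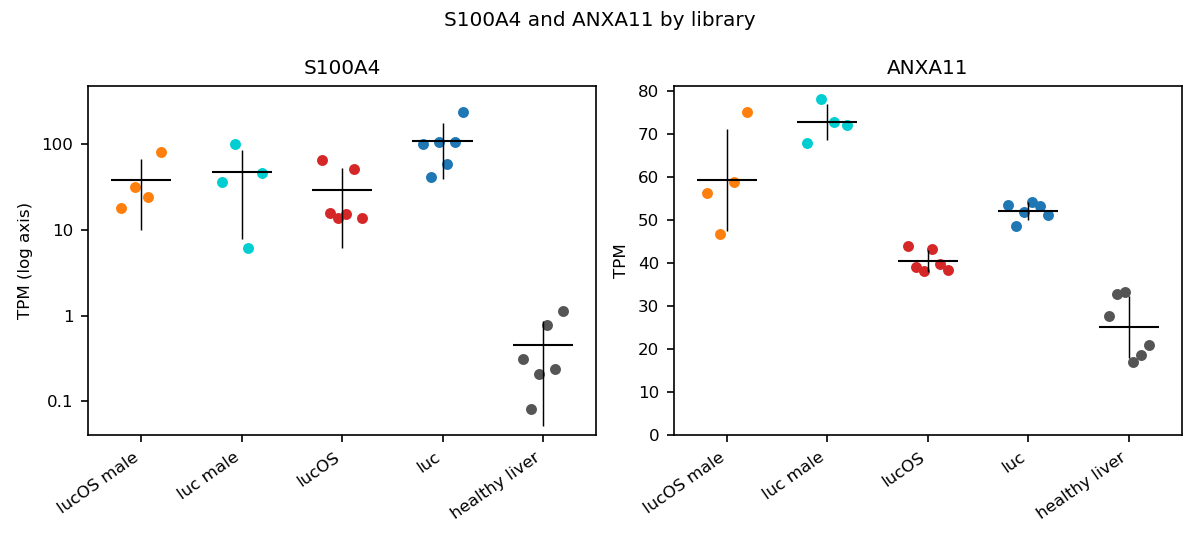
TPM of S100A4 (left, log axis) and ANXA11 (right, linear axis) in each library, with 1 point per library, horizontal lines at the group mean and vertical lines of 1 SD. ANXA11 lay at 38.0 to 43.8 TPM in lucOS and 48.5 to 54.2 TPM in luc tumours without overlap, while S100A4 overlapped between constructs in both tumour sets.

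Among tumours of unstated sex the other members mostly differed less by construct. Of the 22 tested members 6 had a positive and 16 a negative log2 difference, with a median of -0.10, beside 0.01 over all genes, whose 5th to 95th percentiles ran from -0.37 to 0.35. The 16 include S100A4 and ANXA11, which were chosen for lower values with lucOS. The share of all genes with a negative difference was not computed, so the count is a description only. S100A6 averaged 44.2 TPM in lucOS and 76.6 TPM in luc tumours, a difference of -0.69 ± 0.31. S100A8 averaged 1.63 and 5.25 TPM, a difference of -1.22 ± 0.64. The neutrophil sum ran from 0.905 to 3.20 TPM in the same lucOS tumours, against 1.23 to 7.17 TPM in luc tumours.

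In males 10 of the 22 had a positive and 12 a negative difference, with a median of -0.11 beside 0.08 over all genes. The 12 include ANXA11, and the share of negative differences over all genes was not computed here either. ANXA2 had 228, 165, 240 and 246 TPM in lucOS male tumours, against 307, 362, 434 and 259 TPM in luc male tumours (-0.62 ± 0.21 SE). S100B averaged 0.259 TPM in lucOS male and 1.99 TPM in luc male tumours (-1.15 ± 0.34 SE). Both had separate ranges, as did 7.05% of the 14717 genes that reached 1 TPM in at least 4 male tumours. S100B reached it in 3 luc male and 0 lucOS male tumours, so it is not among those genes. ANXA4, a membrane annexin of secretory epithelium, lay on the other side, at 73.1 TPM in lucOS male and 51.1 TPM in luc male tumours (0.50 ± 0.17 SE). These 2 tumour sets share no libraries, and whether they differ in the construct's effect was not tested.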

How the data were processed

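RNA of 26 libraries was measured by bulk RNA-seq. The deposited values are TPM, named as such by the authors' table. The submitters' processing notes list TopHat2, featureCounts, DESeq2 and the build mm10, without roles or versions. TPM keeps no depth, so the read depth is unknown and no counting intervals are given. Libraries listed 16921 to 19172 genes above 0. Of 24063 rows, 27 with date-like names and 2 sharing a name were left out.

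Groups came from the titles. Nothing states the animals behind each library beyond the titles, so p-values measure the spread between these libraries. Tests were limma 3.58.1 in R 4.3.3 (trend, robust) on log2(TPM + 1), which understates changes of low genes, for genes that reached 1 TPM in 4 or more of the fitted libraries, with calls at an adjusted p under 0.05. Male comparisons were fitted on the 20 tumours. Members, gene lists and the naming rule were chosen with earlier results of these data known. The rule gave 14 members in full: S100A4, ANXA11, S100A8, S100A9, the partner pairs, ANXA5 and the largest called changes of each comparison. Other members, and the neutrophil, muscle and lung genes named singly, were named after their values were seen. Correlations used 100000 permutations within groups. In simulated tables of 15391, 15274 and 15277 genes, 100 well-expressed ones were shifted by 1 log2 unit and another 100 by 2. The rest had no group difference. Of the 100 shifted by 1, the test found 92% for tumours, 76% for luc males and 77% for lucOS males. False calls were 10, 10 and 9. The real tumour comparison called 88.7% of genes, unlike the simulated tables, so these rates may not carry over to it. Alternatives were pseudocounts of 0.1 and 5, filters of 0 and 5 TPM, scalings and left-out libraries. Promoter sequences are from RefSeq GRCm38.p6, in which all 28 members matched by symbol. T cell receptor and droplet libraries were not used here. Python 3.11.15, numpy 2.4.6, pandas 2.3.3, scipy 1.17.1 and matplotlib 3.10.9 were used.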

Additional observations from a re-analysis of the deposited data

Results flagged for a closer look

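A gap test for a single library far from its group was run on 70 groups (14 named members in 5 groups), where chance flags about 1 in 20, and 5 values stood out. In luc male 2, S100A8 was at 397 TPM, against 3.62 to 8.26 TPM in the other luc males, and S100A9 was at 399 TPM, against 5.17 to 7.33 TPM. The same library held 473 TPM of 9 neutrophil genes, and what this says of its cells was not tested. ANXA2 was at 525.7 TPM in luc 3, against 218 to 298 TPM in the other luc tumours. Among healthy livers, S100A9 was at 2.90 TPM in healthy liver 4, against 0.658 to 0.981 TPM in the others, and S100A10 was at 157 TPM in healthy liver 5, against 92.3 to 108 TPM in the others.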

How the results depend on the processing

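Between tumours and healthy liver, 39 alternatives were run. Scaling by the median ratio gave 9 members higher, in place of 15, and 8 lower, in place of 4, and quantile normalization gave 8 lower. Among called members the sign turned under the median ratio for ANXA11 (-0.12), ANXA4 (-0.94), ANXA6 (-0.93) and ANXA9 (-0.17), and under quantile normalization for ANXA4 (-0.31) and ANXA9 (-0.53). S100G, not called, was at -0.39 under quantile normalization. Leaving out 1 library gave 14 to 15 higher and 4 to 4 lower. Of the 19 calls, 6 were also lost with their sign kept under at least 1 alternative: ANXA4, ANXA6, ANXA7, S100A16, S100A8 and S100A9. ANXA13 and S100A10, not called on the deposited TPM, were called lower under the median ratio and under quantile normalization.

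Between males and the others in luc tumours, the 3 higher members became 1 in a fit of the groups compared alone and 0 against only the AL51 or only the AL54 tumours, and leaving out 1 library gave 1 to 3. The 1 lower member became 0 against only AL51 or only AL54, and leaving out 1 library gave 1 to 1. In lucOS tumours the 3 higher members became 0 against only AL51 and 1 against only AL54, with 1 to 4 on leaving out 1 library. The 1 lower member became 0 against only AL51 and 2 with a pseudocount of 0.1, a filter of 5 TPM, the median ratio, quantile normalization or the groups compared alone, with 0 to 2 on leaving out 1 library. Restricting to AL51 or AL54, or leaving out a library, leaves fewer libraries. For all other changes named here the cause was not tested.

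No paired analysis was possible because the labels carry no replicate numbers that tie libraries across groups. Correlations within groups were recomputed in subsets: S100A6 with ANXA11 was 0.79 in males, in place of 0.41, and S100A8 with S100A9 was 1.00 in males and 0.87 in tumours of unstated sex, in place of 0.96. The S100A4 and ANXA11 differences by construct stayed within 1 SD in the alternatives run. Depth is unknown, and members under 1 TPM could not be tested.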
